A study of Mus musculus with 12 samples.

Results

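Immunoglobulin genes were read on 12 Mouse Gene 2.0 ST arrays of CD4 T cells from mouse spleen. They comprised every tested gene whose symbol begins with Ighv, Igkv or Iglv, together with Ighm, Igha, Ighg1, Ighg2b, Ighg3, Ighe, Igkc and Jchain. This gave 193 of the 23185 genes tested: 88 variable (V) segments of the heavy chain, 94 V segments of the kappa light chain, 3 V segments of the lambda light chain, and 8 constant genes with Jchain counted among them. Ighd was not analysed here. In the RefSeq table (GRCm38.p6) the heavy chain genes lie on mouse chromosome 12, the kappa genes on 6, the lambda genes on 16 and Jchain on 5.

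Each of the 4 groups held 3 arrays. Activated Cre+ cells carried the genotype Lck-Cre+;Ikzf-/- and were stimulated for 24 hours with antibody to CD3 fixed to the plate and antibody to CD28 in solution. Activated Cre- cells carried Lck-Cre-;Ikzf+/+ and had the same stimulation. Cre+ baseline and Cre- baseline cells of the same genotypes were left untreated. The Lck promoter, which drives Cre in these mice, is active in the T lineage, and Ikaros is a zinc finger transcription factor of lymphocytes. No group carried Cre with intact Ikaros, and no group spent the 24 hours in culture without stimulation, so Cre cannot be told apart from Ikaros loss, nor culture from activation. The labels state neither the age of the mice nor any pooling. They also leave unsaid whether a group's 3 arrays represent different mice, and p-values here therefore reflect only how far the arrays of a group lay apart, which may be technical.

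An antibody pairs heavy chains with light chains of the kappa or lambda type. In a developing B cell, 1 V segment of a locus is joined to shorter segments next to a constant gene. The heavy constant gene sets the isotype, with Ighm giving IgM, Igha giving IgA, Ighe giving IgE and the Ighg genes the IgG subclasses, and Jchain encodes the joining chain that links IgM and IgA into polymers. Complete immunoglobulin chains are products of B cells and of plasma cells, which secrete them. T cells rearrange the T cell receptor loci instead.

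Values are log2 expression, on which a difference of 1 is a 2-fold difference. They were fitted with limma in one model of all 12 arrays, and genes passed at an adjusted p below 0.05 (Benjamini-Hochberg, over the whole set of 23185). The number of arrays limits the precision. A probe set's level cannot be set against that of another probe set, so levels are compared only within a gene. V segments of a family share much of their sequence, and whether 1 probe set also reads near relatives was not tested. Array medians lay between 4.04 and 4.17. Over the 12 arrays 112 immunoglobulin genes averaged above the mean array median of 4.10, which was 58% of them against 50.9% of all genes, and 35 averaged at least 6 (18.1% against 31% of all genes). A further 50 averaged under 3, where no detection call was available and a difference compares readings only.

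The T cell label was checked on 2 markers. Cd4 read 10.48 to 11.60 over the 12 arrays and Cd3e, a chain of the T cell receptor complex, 10.15 to 11.14. The CD8 T cell markers Cd8a and Cd8b1 read 5.24 to 6.93 and 6.69 to 7.73, above the array medians. The preparations also carried B cell transcripts. Cd79a, a signalling chain of the B cell receptor, read 9.53 to 9.60 on the Cre+ and 9.56 to 9.81 on the Cre- baseline arrays, and it was not near 0 on any activated array. Most markers of B cells moved with the immunoglobulin genes in both activation comparisons, and their values are given beside them.

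Promoter sequence from RefSeq (GRCm38.p6) was matched for 1 of the 193 genes, Jchain, and it is shown because Jchain was among the genes with the largest falls in both genotypes. The window covers chr5:88527848-88528147 on the minus strand, 250 bases before to 50 bases after the gene's start.

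Jchain: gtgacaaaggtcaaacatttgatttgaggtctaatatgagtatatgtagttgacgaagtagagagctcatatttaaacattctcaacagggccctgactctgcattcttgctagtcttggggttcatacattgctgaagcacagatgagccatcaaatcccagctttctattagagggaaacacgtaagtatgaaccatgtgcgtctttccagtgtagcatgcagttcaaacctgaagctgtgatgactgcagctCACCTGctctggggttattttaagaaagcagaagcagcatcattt

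The capitals mark the letters CACCTG, the reverse complement of the E-box letters CAGGTG, at bases 256 to 261 of the window. Each motif was searched on both strands. The E-box letters stood in 20.2% of 32851 promoters of the same length. The octamer letters ATGCAAAT, known from immunoglobulin promoters, had no match in this window and stood in 1.74% of promoters, and the letters TGGGAA, a core bound by Ikaros, had none and stood in 25.6%.

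Activation was accompanied by lower readings across the immunoglobulin genes. In Cre+ cells 110 of 193 fell (57%) and 0 rose (limma, 0 at an unadjusted p under 0.05), where 20.7% of all genes passed, 10.6% lower and 10.1% higher. In Cre- cells 148 fell (76.7%) and 0 rose (limma, 1 at an unadjusted p under 0.05), where 18.5% of all genes passed, 9.1% lower and 9.39% higher. The median difference was -1.33 in Cre+ and -1.85 in Cre- cells, against -0.02 and -0.01 over all genes tested.

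Falls were often large. In Cre+ cells 96 of the genes that passed were at least 2-fold lower and 44 at least 4-fold lower. In Cre- cells these counts were 137 and 88. Over all 23185 genes tested they were 878 and 181 in Cre+ and 829 and 226 in Cre- cells. All 3 activated arrays lay below all 3 baseline arrays for 147 genes in Cre+ cells, where 19.3% of all genes did so, and for 161 in Cre- cells, where 17.4% did so. The 2 activation comparisons share no arrays, though they share the model's estimate of the spread. Both lists held 104 genes, 94.5% of those that fell in Cre+ and 70.3% of those that fell in Cre- cells, and 44 passed in Cre- cells alone. In a bulk preparation, fewer cells of a type and less RNA per cell cannot be told apart.

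The falls were not limited to dim genes. Of the 112 immunoglobulin genes above the array median, 79 fell in Cre+ and 103 in Cre- cells, where 17.5% and 15.1% of all genes above it fell. Of the 35 that averaged at least 6, 28 fell in Cre+ and 35 in Cre- cells, with medians of -1.67 and -2.54, where 18.6% and 16% of all genes at that level fell. Among the 50 genes that averaged under 3 the falls numbered 13 in Cre+ and 19 in Cre- cells, where 2.1% and 1.42% of all genes at that level fell.

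**Figure D1:**
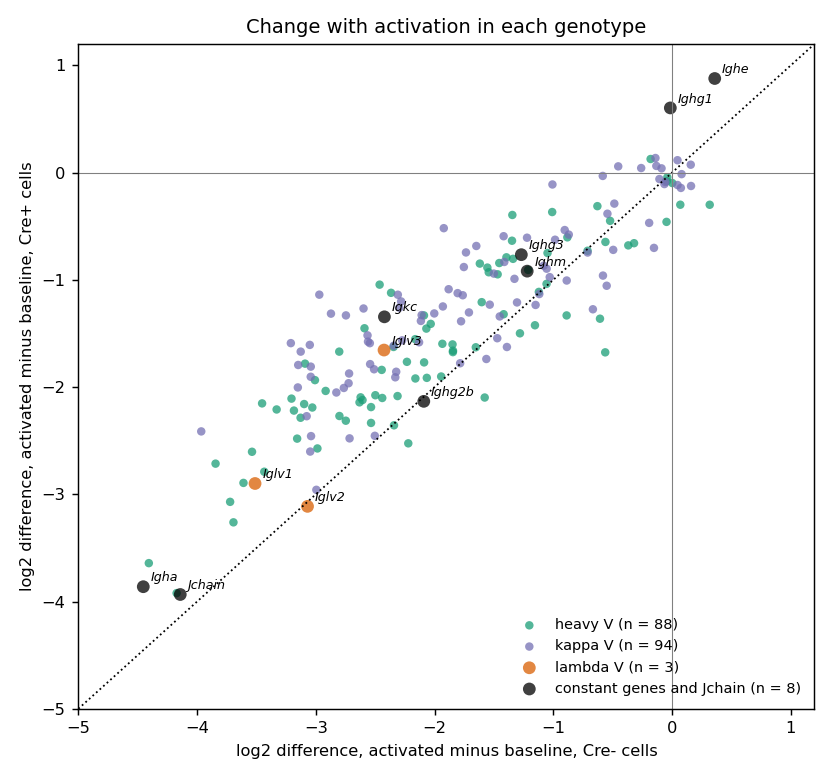
Log2 difference of each of the 193 immunoglobulin genes between activated and baseline cells, in Cre+ cells (vertical axis) against Cre- cells (horizontal axis); each point is 1 gene, colours mark the classes, the dotted line marks equal differences, and the constant genes and lambda segments are named. Most points lie below and left of 0, 153 of 193 lie above the dotted line, and Igha and Jchain stand at the far lower left.

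The constant genes differed widely in how far they fell. Igha and Jchain, which together serve polymeric IgA, fell about as steeply as any immunoglobulin gene. Ighm, which encodes the mu chain of IgM, fell modestly, and Ighg1 and Ighe did not pass in either genotype.

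Igha read 3.91, 5.08 and 4.18 on the activated Cre+ arrays, against 6.99, 8.12 and 9.64 on the Cre+ baseline arrays. In Cre- cells it read 3.46, 4.30 and 3.69 after activation, against 9.24, 7.73 and 7.83 at baseline. No activated array reached the lowest baseline array. The difference was -3.86 in Cre+ cells (SE 0.60, 14.5-fold lower, limma adjusted p = 0.000967) and -4.45 in Cre- cells (SE 0.60, 21.9-fold lower, limma adjusted p = 0.000424).

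Jchain read 1.96, 2.41 and 2.72 on the activated Cre+ arrays, against 5.53, 5.64 and 7.72 on the Cre+ baseline arrays. The Cre- arrays read 1.99, 2.16 and 2.19 after activation and 6.66, 6.35 and 5.76 at baseline. All activated readings were below the array medians and all baseline readings above them, so the folds compare a clear reading with a dim one. Jchain was 15.3-fold lower in activated Cre+ cells (difference -3.93, SE 0.47, limma adjusted p = 0.000177) and 17.6-fold lower in activated Cre- cells (-4.14, SE 0.47, limma adjusted p = 0.000134).

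Ighm stood high on every array. It read 10.55, 10.37 and 10.87 on the activated Cre+ arrays, against 11.44, 11.36 and 11.74 on the Cre+ baseline arrays. In Cre- cells the readings were 10.32, 10.46 and 10.38 after activation and 11.69, 11.48 and 11.64 at baseline. These groups were tight, with SDs of 0.07 to 0.25, and did not overlap. The difference was -0.92 in Cre+ cells (limma adjusted p = 0.00097, SE 0.14) and -1.22 in Cre- cells (limma adjusted p = 0.000154, SE 0.14).

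Igkc, the only constant gene of the kappa chain, spread more after activation. The activated Cre+ arrays read 10.32, 9.02 and 10.75, against 11.20, 11.17 and 11.76 on the Cre+ baseline arrays. The activated Cre- arrays read 7.96, 8.86 and 10.14, against 11.65, 11.31 and 11.26 on the Cre- baseline arrays. Every activated array was below every baseline array of its genotype, and the 3 activated arrays of a genotype were up to 2.18 apart. The difference of -2.42 in Cre- cells passed (SE 0.51, 5.36-fold lower, limma adjusted p = 0.0064). In Cre+ cells it was -1.34 (SE 0.51, 95% interval -2.45 to -0.24) and did not pass (limma adjusted p = 0.0864).

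The IgG genes were less uniform. Ighg2b, which encodes the IgG2b heavy chain, read 4.96, 3.31 and 5.48 on the activated Cre+ arrays, against 6.20, 5.87 and 8.08 on the Cre+ baseline arrays. On the Cre- arrays it read 3.25, 3.80 and 5.19 after activation and 6.63, 6.41 and 5.47 at baseline. The groups of each genotype did not overlap. The differences were nearly equal, -2.13 in Cre+ cells (limma adjusted p = 0.0481, SE 0.69) and -2.09 in Cre- cells (limma adjusted p = 0.0563, SE 0.69), and only the first passed. That call was lost in 11 of 22 alternative settings, among them median centring and quantile normalization with all arrays kept. Without Cre+ baseline array 3 the difference was -1.45 (limma adjusted p = 0.184).

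Ighg3, of the IgG3 subclass, read 5.53, 4.55 and 5.54 on the activated Cre+ arrays, against 5.85, 5.37 and 6.68 on the Cre+ baseline arrays. The Cre- arrays read 3.99, 4.77 and 5.28 after activation and 6.33, 5.55 and 5.97 at baseline. Readings overlapped in Cre+ but not in Cre- cells. The difference was -0.76 in Cre+ cells (limma adjusted p = 0.226, SE 0.40) and -1.27 in Cre- cells (limma adjusted p = 0.0471, SE 0.40), and leaving out Cre- baseline array 1 raised the adjusted p in Cre- cells to 0.161.

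Ighg1 and Ighe gave no call in either direction. Ighg1, of the IgG1 subclass, read 5.95, 4.64 and 7.53 on the activated Cre+ arrays, against 4.34, 6.82 and 5.14 on the Cre+ baseline arrays. In Cre- cells it read 3.36, 4.28 and 7.18 after activation and 5.20, 5.07 and 4.59 at baseline. Array 3 was the highest activated array in both genotypes, and the Cre- activated arrays spread 14.1-fold. The difference was 0.60 in Cre+ cells (95% interval -1.48 to 2.68, limma adjusted p = 0.741) and -0.01 in Cre- cells (-2.09 to 2.06, limma adjusted p = 0.995).

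For Ighe, array 3 was likewise the highest activated array of each genotype. It read 2.94, 2.37 and 4.76 on the activated Cre+ arrays, against 2.61, 2.23 and 2.60 on the Cre+ baseline arrays. The Cre- arrays gave 2.71, 2.44 and 4.15 after activation and 2.68, 2.62 and 2.93 at baseline. Only the 2 activated arrays numbered 3 read above 4. The difference was 0.88 in Cre+ (SE 0.54, limma adjusted p = 0.314) and 0.36 in Cre- cells (limma adjusted p = 0.742, SE 0.54). Ighe and the kappa segments Igkv3-9 and Igkv1-35 were the only immunoglobulin genes above 0 in both activation comparisons.

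**Figure D2:**
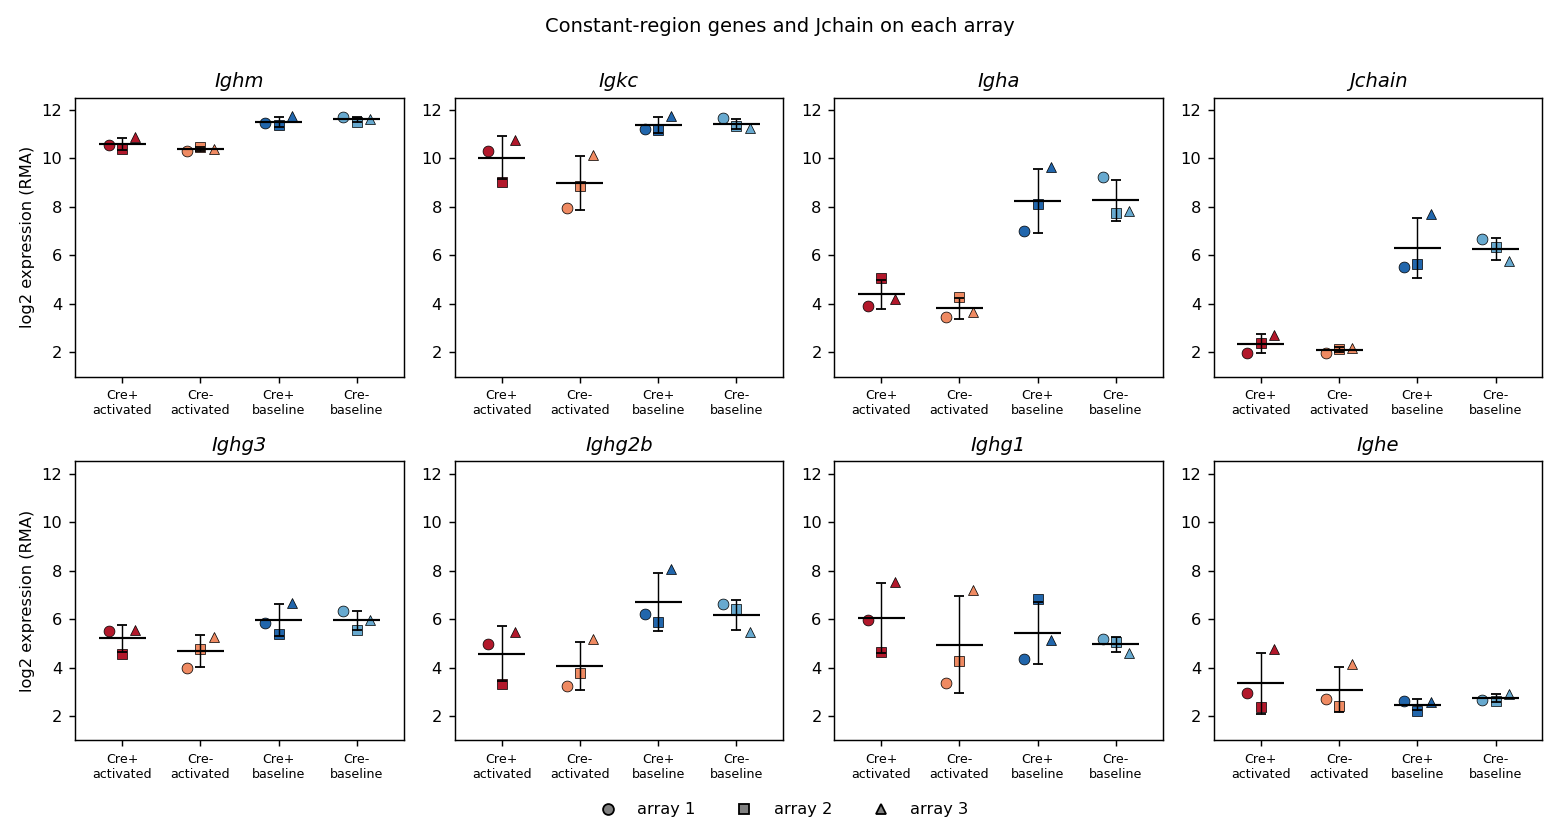
Log2 expression of the 7 constant genes and Jchain on each array; points are arrays 1 to 3 (circle, square, triangle) of the 4 groups, the wide bar is the group mean and the error bar the SD (n = 3). Igha and Jchain read at most 5.08 on every activated array, against at least 5.53 on every baseline array, Ighm shifts by about 1 with little spread, and for Ighg1 and Ighe the activated arrays numbered 3 stand highest.

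All 3 lambda V segments fell in both genotypes, with medians of -2.90 in Cre+ and -3.07 in Cre- cells. Iglv1 read 5.62, 4.48 and 7.39 on the activated Cre+ arrays, against 8.47, 8.49 and 9.22 on the Cre+ baseline arrays. It read 3.98, 4.62 and 6.66 on the activated Cre- arrays, against 8.70, 8.74 and 8.36 on the Cre- baseline arrays. The activated arrays were spread over 2.91 and 2.68 yet stayed below every baseline array. Iglv1 was 7.46-fold lower in activated Cre+ (limma adjusted p = 0.0134) and 11.4-fold lower in activated Cre- cells (limma adjusted p = 0.00534).

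Iglv2 behaved alike, with 4.18, 2.32 and 5.89 on the activated Cre+ arrays, against 7.07, 6.61 and 8.04 on the Cre+ baseline arrays. On the Cre- arrays Iglv2 read 2.94, 3.43 and 5.36 after activation and 7.18, 6.90 and 6.86 at baseline. Iglv3 was tighter and read 4.29, 4.82 and 5.49 on the activated Cre+ arrays, against 6.65, 6.29 and 6.62 on the Cre+ baseline arrays. For both segments the groups of a genotype did not overlap. The differences of Iglv2 were -3.11 in Cre+ and -3.07 in Cre- cells (SE 0.79 each, limma adjusted p = 0.0161 and 0.0189), and those of Iglv3 were -1.65 and -2.43 (SE 0.30 each, limma adjusted p = 0.00256 and 0.000237). Without Cre+ baseline array 3 or Cre+ activated array 1, Iglv1 and Iglv2 no longer passed in Cre+ cells, and Iglv2 lost its call in Cre- cells when any of 5 single Cre- arrays was left out.

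Heavy chain V segments fell in large numbers in both genotypes. In Cre+ cells 65 of 88 fell (73.9%, median -1.63) and in Cre- cells 72 fell (81.8%, median -2.07), with 63 on both lists. The share that fell varied between families. Of 44 measured Ighv1 segments, 35 fell in Cre+ and 38 in Cre- cells. Of 9 Ighv5 segments, 7 and 8 fell, and all 4 segments of Ighv9 and all 4 of Ighv14 fell in both genotypes. Of 8 Ighv2 segments, 4 fell in Cre+ and 5 in Cre- cells, and of 4 Ighv8 segments, 2 and 3 did. Neither of the 2 Ighv7 segments, nor the 1 measured segment each of Ighv13 and Ighv16, passed in either genotype.

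Ighv4-1 had the largest fitted difference of any V segment in Cre+ cells. It read 1.54, 1.66 and 2.35 on the activated Cre+ arrays, against 6.13, 5.20 and 5.98 on the Cre+ baseline arrays. In Cre- cells the readings were 1.24, 1.44 and 2.11 after activation and 6.43, 5.99 and 4.89 at baseline. All activated readings lay below every array median, so the folds of 15.2 in Cre+ and 18 in Cre- cells compare a clear reading with a dim one (limma adjusted p = 4.51e-05 and 3.52e-05).

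Ighv6-3 had the largest fitted difference of any V segment in Cre- cells, and it fell to 1.60, 2.86 and 3.97 on the activated arrays, against 7.83, 6.93 and 6.89 on the Cre- baseline arrays. In Cre+ cells it read 3.23, 2.60 and 3.80 after activation and 6.81, 5.85 and 7.90 at baseline. The fitted differences were -3.64 in Cre+ and -4.41 in Cre- cells (SE 0.60 each). Ighv1-78 (-3.26 and -3.69) and Ighv10-1 (-3.07 and -3.72) also ranked among the largest falls in both genotypes, as did Ighv1-9 in Cre- cells (-3.84). All of these kept their calls under each alternative setting that was run for them.

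The 6 heavy segments chosen by the mean of their readings over all arrays, a rule that does not rank amounts of transcript, were Ighv2-3, Ighv11-2, Ighv2-9-1, Ighv9-3, Ighv1-75 and Ighv2-2. Ighv9-3 read 6.51, 5.51 and 6.98 on the activated Cre+ arrays, against 8.90, 8.35 and 10.44 on the Cre+ baseline arrays, a 7.43-fold fall (limma adjusted p = 0.00972). On the activated Cre- arrays it read 3.65, 5.26 and 6.48, against 8.98, 8.64 and 8.59 on the Cre- baseline arrays, a 12.2-fold fall (limma adjusted p = 0.00321). Neither genotype's groups overlapped for this segment.

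Ighv2-3 and Ighv2-2 moved little. Ighv2-3 read 7.34, 7.21 and 7.60 on the activated Cre+ arrays, against 7.92, 8.29 and 8.19 on the Cre+ baseline arrays (difference -0.75, limma adjusted p = 0.0115), and its difference in Cre- cells was -1.05 (limma adjusted p = 0.0019). Ighv2-2 had differences of -0.31 in Cre+ cells (limma adjusted p = 0.175) and -0.63 in Cre- cells (limma adjusted p = 0.0117). The other 3 of these segments fell in both genotypes. Ighv11-2 fell alike in Cre+ and Cre- cells (-1.63 and -1.65), as did Ighv2-9-1 to a smaller degree (-1.21 and -1.60), whereas the differences of Ighv1-75 were -1.78 and -3.09.

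Kappa V segments fell in both genotypes as well. In Cre+ cells 38 of 94 fell (40.4%, median -1.21) and in Cre- cells 68 fell (72.3%, median -1.72). Both lists held 35, and 33 kappa segments passed in Cre- cells alone, against 9 heavy segments. Whether heavy and kappa counts differ was not tested, since segments read on the same arrays are not replicates. Above the array median, 28 of 53 kappa segments fell in Cre+ and 48 in Cre- cells, against 44 and 47 of 49 heavy segments.

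Among the kappa families, 16 of 25 Igkv4 segments fell in Cre+ and 21 in Cre- cells. None of 6 Igkv12 segments passed in Cre+ cells, while 5 fell in Cre- cells, and of 3 Igkv10 segments none passed in Cre+ and all fell in Cre- cells. Of 9 Igkv3 segments 1 fell in Cre+ and 6 in Cre- cells. The number after the family in a kappa segment's name gives its place in the locus. Of 49 segments at places 1 to 68, 20 fell in Cre+ and 36 in Cre- cells, and of 45 at places above 68, 18 fell in Cre+ and 32 in Cre- cells.

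The 6 kappa segments chosen by the mean of their readings over all arrays were Igkv2-137, Igkv10-96, Igkv4-68, Igkv1-135, Igkv1-117 and Igkv1-110. Igkv10-96 spread widely over the activated arrays. It read 7.61, 5.42 and 8.20 on the activated Cre+ arrays, against 8.16, 8.69 and 9.38 on the Cre+ baseline arrays. It read 4.23, 5.57 and 7.52 on the activated Cre- arrays, against 9.35, 8.72 and 8.63 on the Cre- baseline arrays. Activated Cre+ array 3 overlapped the baseline arrays, and the difference of -1.67 did not pass (SE 0.79, limma adjusted p = 0.178). In Cre- cells the 8.74-fold fall passed (difference -3.13, SE 0.79, limma adjusted p = 0.0174).

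Igkv1-117 and Igkv1-110 followed the same course. They read 4.01-fold and 3.5-fold lower in activated Cre+ cells without passing (limma adjusted p = 0.123 and 0.0831), and they fell by 3.15 and by 3.04 on the log2 scale in Cre- cells (limma adjusted p = 0.0218 and 0.00864). Igkv1-135 and Igkv4-68 fell in both genotypes, Igkv1-135 by 1.96 in Cre+ and by 2.72 in Cre- cells on the log2 scale, and Igkv4-68 by 1.38 and by 2.12. Igkv2-137 had the smallest differences of these 6, with -0.54 in Cre+ cells (limma adjusted p = 0.0803) and -0.90 in Cre- cells (limma adjusted p = 0.00815).

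The largest kappa fall was that of Igkv4-70 in Cre- cells. It read 1.61, 1.62 and 4.06 on the activated Cre- arrays, against 6.23, 6.69 and 6.28 on the Cre- baseline arrays, a 15.6-fold fall (limma adjusted p = 0.00309). On the activated Cre+ arrays it read 4.36, 2.11 and 4.92, against 6.07, 5.76 and 6.79 on the Cre+ baseline arrays. The groups did not overlap in either genotype. The fall of 2.41 on the log2 scale in Cre+ cells (limma adjusted p = 0.0361) was lost in 8 of 21 alternative settings, each of which left out 1 array.

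Heavy and kappa segments were also set against each other on each array, as the mean of the 53 kappa minus the mean of the 49 heavy segments that lay above the array median. Since levels of different probe sets are not comparable, only its change between arrays can be read. It was 0.26, -0.41 and 0.17 on the activated Cre+ arrays, against -0.39, -0.23 and -0.34 on the Cre+ baseline arrays. On the activated Cre- arrays it was -0.28, -0.29 and 0.10, against -0.45, -0.27 and -0.36 on the Cre- baseline arrays. The activated and baseline arrays overlapped in both genotypes.

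**Figure D3:**
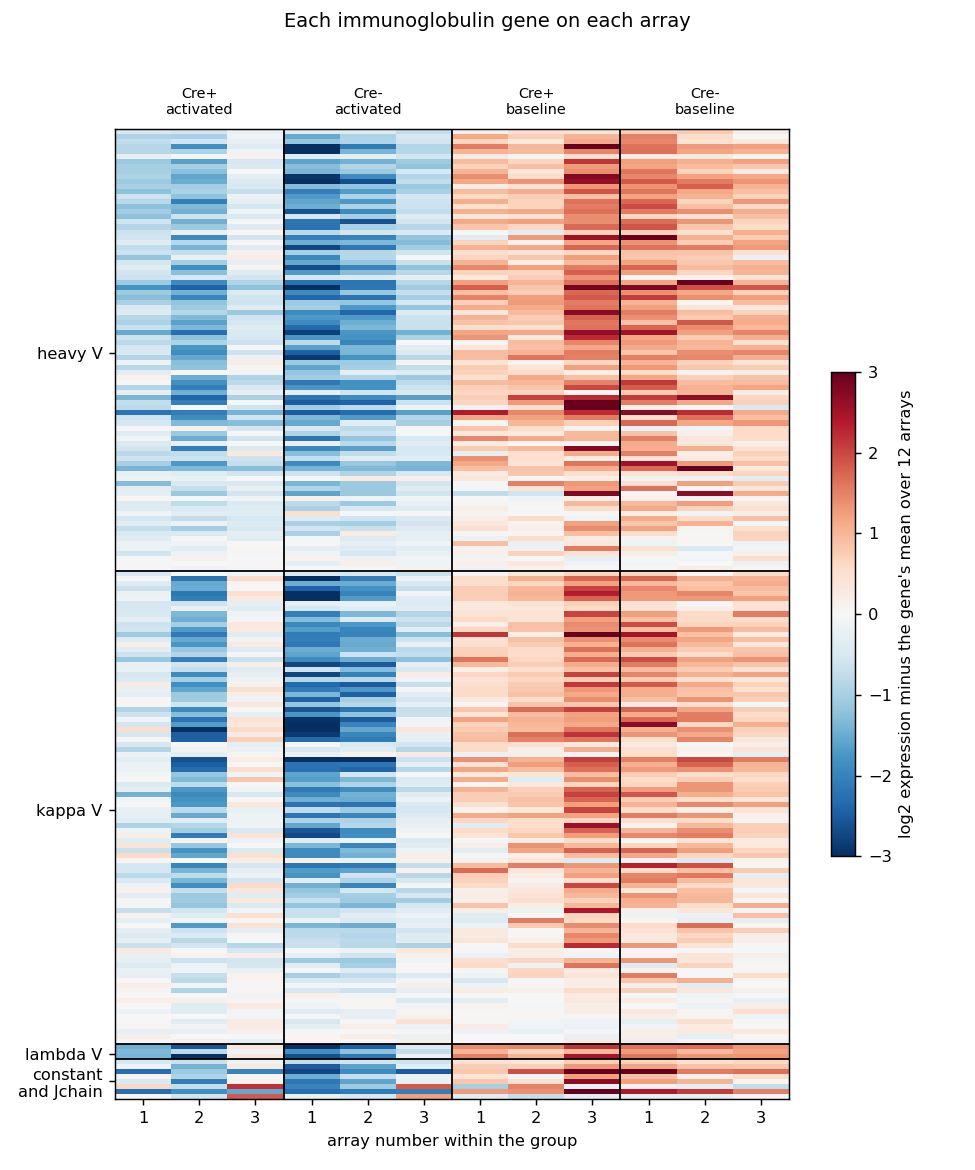
Log2 expression of each immunoglobulin gene on each array, minus that gene's mean over 12 arrays; rows are the 193 genes grouped by class and ordered within a class by their mean level, columns are arrays 1 to 3 of each group, and the colour scale runs from -3 (blue) to 3 (red). The baseline columns are red and the activated columns blue for most rows, while the activated columns numbered 3 are pale and Cre+ baseline array 3 is the darkest red.

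Cre+ and Cre- cells were compared next, within each state. At baseline no immunoglobulin gene passed: 0 of 193 in limma, with 10 at an unadjusted p under 0.05 (3 higher and 7 lower in Cre+ cells), where 0.552% of all genes passed, 0.492% higher and 0.0604% lower. The smallest adjusted p was 0.257. The median difference was -0.04, and single genes ran from -0.80 to 1.30. Only 3 genes had all Cre+ arrays above all Cre- arrays and 4 the reverse, where 8.82% and 7.42% of all genes did so.

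The genes with the largest test statistic at baseline were all dim. Ighv1-73 read 2.50, 2.87 and 2.16 on the Cre+ baseline arrays, against 3.42, 2.87 and 3.19 on the Cre- baseline arrays (difference -0.65, limma adjusted p = 0.257). Igkv4-81 (-0.41, limma adjusted p = 0.284) and Ighv16-1 (0.37, limma adjusted p = 0.367) followed. All baseline readings of these 3 segments lay below the array medians. The widest baseline difference, 1.30 for Ighv5-15, came from 1 array, as it read 3.64, 4.31 and 7.07 in Cre+ cells (limma adjusted p = 0.796, SE 0.66).

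The constant genes gave no call at baseline either. Ighm averaged 11.51 ± 0.20 in Cre+ and 11.60 ± 0.11 in Cre- cells (SD, n = 3 each), with a difference of -0.09 and a 95% interval of -0.40 to 0.22. Igkc averaged 11.38 ± 0.33 and 11.41 ± 0.21 (interval of the difference -1.14 to 1.08). Igha averaged 8.25 ± 1.33 and 8.27 ± 0.84 (interval -1.33 to 1.29). Only for Ighm does the interval exclude a 2-fold difference among these 3 genes.

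After activation 0 of 193 immunoglobulin genes passed between genotypes in limma, with 14 at an unadjusted p under 0.05 (13 higher and 1 lower in Cre+ cells), where 0.729% of all genes passed, 0.63% higher and 0.0992% lower. The smallest adjusted p was 0.19. The count depended on the weight given to each array: with array weights estimated by limma, 56 genes passed, all higher in Cre+ cells (16 heavy, 39 kappa and 1 constant), where 10.4% of all genes passed. Those weights were 3.787, 0.392 and 0.517 on activated Cre+ arrays 1 to 3, and 0.859, 3.075 and 0.235 on activated Cre- arrays 1 to 3. The weighted count thus rests mainly on 1 array of each genotype. With equal weights most readings were nevertheless on the higher side in Cre+ cells. The difference was above 0 for 167 of 193 genes with a median of 0.37, against -0.01 over all genes tested. By class the medians were 0.32 for heavy, 0.44 for kappa and 0.51 for lambda segments, and 0.51 for the constant genes and Jchain, of which all 8 were above 0. Segments read on the same arrays move together, so these counts are a description without a test. Groups separated for 5 genes upward and 2 downward, where 5.25% and 5.51% of all genes did so.

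Ighv5-9 had the largest test statistic after activation. It read 5.23, 4.77 and 5.63 on the activated Cre+ arrays, against 4.13, 4.26 and 4.30 on the activated Cre- arrays. All Cre+ arrays lay above all Cre- arrays, by 0.98 on average, and the difference did not pass (SE 0.27, limma adjusted p = 0.19). For Igkv6-13 the readings were 5.48, 5.16 and 5.86 in Cre+ cells, against 2.98, 3.18 and 5.40 in Cre- cells. Here activated Cre- array 3 overlapped the Cre+ arrays, and the 3.13-fold difference did not pass (SE 0.50, limma adjusted p = 0.257). Without that array the difference was 2.42 on the log2 scale and passed (limma adjusted p = 0.000445), together with 3 others, Ighv1-82, Ighv1-52 and Ighv1-9.

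Igkc was 2.06-fold higher in activated Cre+ than in activated Cre- cells, and this did not pass (limma adjusted p = 0.703, SE 0.51). The difference of Ighm was 0.21, with an interval of -0.10 to 0.52. Ighg1 differed by 1.10 (interval -0.98 to 3.18), and the remaining constant genes and Jchain by 0.25 to 0.57, all without a call. Single arrays weighed on the median over all 193 genes, which ran from 0.19 without activated Cre+ array 3 to 0.61 without activated Cre+ array 2.

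The difference of the activation responses was fitted as the change in Cre+ minus the change in Cre- cells. None of the 193 genes passed: 0 in limma, with 9 at an unadjusted p under 0.05, where 0.00863% of all genes passed. The smallest adjusted p was 0.653. The fitted difference was above 0 for 153 genes, with a median of 0.47, which means a smaller fall in Cre+ cells. Thus 44 genes passed in Cre- cells alone without a shown difference between genotypes.

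Ighv5-9 again led, with a fall of 1.04 in Cre+ and of 2.46 in Cre- cells on the log2 scale (difference 1.42, 95% interval 0.59 to 2.25, limma adjusted p = 0.653). Ighv5-4 fell by 1.45 in Cre+ and by 2.59 in Cre- cells (difference 1.14, limma adjusted p = 0.895). Ighv16-1 differed in the other direction and was dim. It read 2.52, 2.47 and 2.66 on activated Cre+ arrays, against 3.02, 2.69 and 2.84 on Cre+ baseline arrays, and 2.65, 2.92 and 2.82 on activated Cre- arrays, against 2.54, 2.56 and 2.33 on Cre- baseline arrays. All activated arrays were below baseline in Cre+ cells and above it in Cre- cells, and neither change nor the difference of -0.62 passed (limma adjusted p = 0.105, 0.0919 and 0.686).

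The immunoglobulin genes varied more between arrays of a group than most genes did. The readings of a gene on the 3 arrays of a group were more than 1 apart for 46.1% of the immunoglobulin genes in activated Cre+, 45.1% in activated Cre-, 40.9% in Cre+ baseline and 23.8% in Cre- baseline cells. Over all genes these shares were 5.8%, 7.55%, 1.49% and 1.12%. The median SE of a fitted difference was 0.37 for immunoglobulin genes and 0.15 for all genes.

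They also varied together. Activated Cre+ array 3 held the highest reading of its group for 140 of 193 genes, and activated Cre- array 3 for 150 (72.5% and 77.7%, against 35.4% and 37.2% of all genes). At baseline Cre+ array 3 was highest for 149 and Cre- array 1 for 114 (77.2% and 59.1%, against 31.5% and 32.3% of all genes). Activated Cre+ array 2 was lowest for 144 and activated Cre- array 1 for 125. The median immunoglobulin gene stood 0.57 above the other arrays of the group on activated Cre+ array 3, 0.71 on activated Cre- array 3, 0.58 on Cre+ baseline array 3 and 0.31 on Cre- baseline array 1. These arrays decide several counts. Without Cre+ baseline array 3 the genes that fell in Cre+ cells numbered 67 in place of 110, and without Cre- baseline array 1 those that fell in Cre- cells numbered 108 in place of 148.

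Some segments spread widely within a group. Ighv1-50 read 1.77, 1.94 and 5.31 on the Cre+ baseline arrays, against 2.53, 5.22 and 3.64 on the Cre- baseline arrays, and Ighv8-5 read 4.37, 5.90 and 3.00 on the Cre- baseline arrays. Igkv17-127 read 5.55, 1.87 and 5.61 on the activated Cre+ arrays, against 1.72, 3.50 and 5.39 on the activated Cre- arrays, a span of 13.3-fold and 12.7-fold within a group. It therefore missed the threshold in both activation comparisons despite differences of -1.79 in Cre+ and -2.54 in Cre- cells (limma adjusted p = 0.25 and 0.0997).

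**Figure D4:**
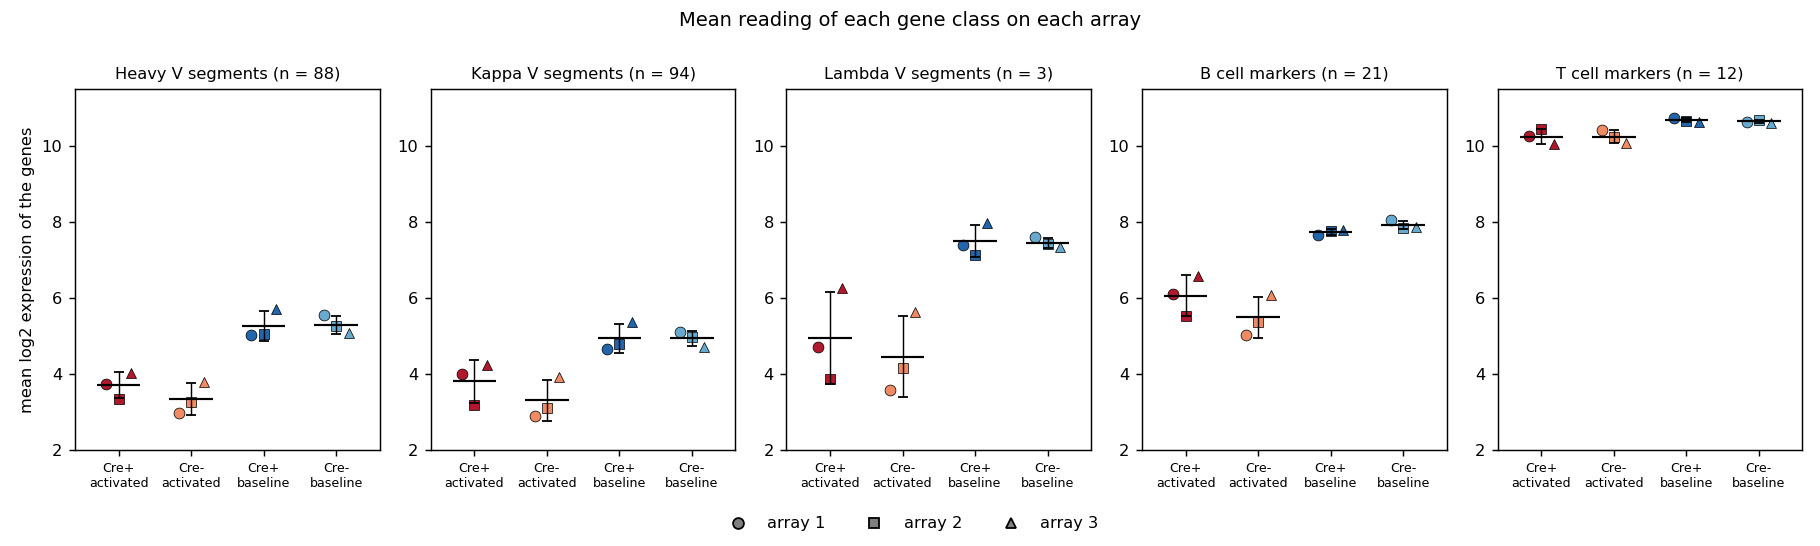
Mean log2 expression on each array of the 88 heavy, 94 kappa and 3 lambda V segments and of 21 B cell and 12 T cell marker genes; points are arrays 1 to 3 of the 4 groups, the wide bar is the group mean and the error bar the SD (n = 3). The V segments and the B cell markers are lower on activated arrays and highest among these on array 3 of each genotype. The T cell markers range from 10.05 to 10.74 and are also lower on activated arrays, by less.

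Markers of B cells followed the immunoglobulin genes across the activated arrays. The mean of 21 measured B cell markers was 6.10, 5.51 and 6.57 on the activated Cre+ arrays, against 7.66, 7.77 and 7.79 on the Cre+ baseline arrays. It was 5.01, 5.37 and 6.08 on the activated Cre- arrays, against 8.04, 7.84 and 7.88 on the Cre- baseline arrays. Of the 21, 17 fell in Cre+ and 20 in Cre- cells, with medians of -1.51 and -2.19, where 10.6% and 9.1% of all genes fell. Fcer2a passed in neither genotype, with differences of 0.90 in Cre+ and -0.63 in Cre- cells (limma adjusted p = 0.316 and 0.533). Pax5 did not pass in Cre+ cells (-0.86, limma adjusted p = 0.388). The median difference of the 21 markers between Cre+ and Cre- cells after activation was 0.61. Cd79b, the partner chain of Cd79a, differed there by 1.10 and did not pass (SE 0.31, limma adjusted p = 0.206). The part of the B cell transcripts in the immunoglobulin results was not tested.

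Cd79a fell by 3.21 in Cre+ and by 4.01 in Cre- cells (SE 0.48 each, limma adjusted p = 0.000828 and 0.0002). Ms4a1, which encodes CD20, read 6.81, 5.70 and 7.85 on activated Cre+ arrays, against 8.22, 8.38 and 8.29 on Cre+ baseline arrays (difference -1.51, limma adjusted p = 0.0918), and it fell by 2.88 in Cre- cells (limma adjusted p = 0.00519). On activated arrays Cd79a, Ms4a1 and Pax5, the transcription factor that maintains B cell identity, were each highest on array 3 of both genotypes. On Cre- baseline array 1, which most often held the highest immunoglobulin reading, the B cell marker mean led its group by 0.16 or more. On Cre+ baseline array 3 that mean led by only 0.02, while the median immunoglobulin gene stood 0.58 above the other arrays. Single markers were mixed on Cre+ baseline array 3. Cd79a (9.53), Pax5 (6.45), Cd22, Ebf1, Blk and Vpreb3 read lowest of their group, while Cd74 (11.15), H2-Aa (10.20), Blnk and Bank1 read highest. The mean of 9 B cell receptor signalling genes was 7.57 there, against 7.29 and 7.34 on the other Cre+ baseline arrays, and that of 11 myeloid markers was 6.62, against 5.89 and 5.93.

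Other genes of B cell receptor function moved the same way. Of 9 measured B cell receptor signalling genes, 7 fell in Cre+ and 9 in Cre- cells, among them the kinase gene Syk (-1.62 and -2.38). Of 10 receptors and transporters of immunoglobulin, 6 fell in Cre+ and 7 in Cre- cells. Fcmr, the receptor for IgM, fell by 3.92 and by 4.48 (limma adjusted p = 4.01e-07 and 1.78e-07), and Fcgrt, the neonatal Fc receptor, by 2.33 and by 1.87. Of 11 myeloid markers 9 fell in each genotype, so lower readings were not limited to B cell genes. Of 12 measured T cell markers, 8 fell in Cre+ and 5 in Cre- cells, with smaller median differences of -0.50 and -0.43. Beside all these lists, 10.6% of all genes fell in Cre+ and 9.1% in Cre- cells.

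Most genes of the plasma cell list did not fall. Of 14 listed, 5 rose and 1 fell in each activation comparison. Over all genes tested 10.1% rose and 10.6% fell in Cre+ cells, and 9.39% rose and 9.1% fell in Cre- cells. The 1 that fell was Pou2af1, which is also on the B cell list (-0.85 in Cre+ and -1.03 in Cre- cells, limma adjusted p = 0.0188 and 0.00774). Xbp1, a factor of the secretory program that activated T cells also use, rose by 1.18 in Cre+ and by 1.28 in Cre- cells, and Irf4, which acts in both plasma cells and activated T cells, rose by 2.90 and by 3.74. Prdm1, Sdc1, Mzb1 and Tnfrsf17, further plasma cell genes, passed in neither genotype, and Tnfrsf17 read 2.52 to 2.83 on all arrays. Irf4 was also 0.95 higher in Cre+ than in Cre- cells at baseline (limma adjusted p = 0.00317), where no immunoglobulin gene passed. Of 8 germinal centre and class switch genes, 2 rose in Cre+ and 1 in Cre- cells, where 10.1% and 9.39% of all genes rose.

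Of 8 recombination and pre-B cell receptor genes, 1 fell in Cre+ and 2 in Cre- cells, where 10.6% and 9.1% of all genes fell. Counts this small are not read as a trait of either list of 8. Rag1 and Rag2, which cut the V segments for joining, read below the array median on all 12 arrays, Rag2 from 2.07 to 2.47, and passed in no comparison. Dntt, which adds bases at the joints, fell by 2.83 in Cre+ and by 2.02 in Cre- cells (limma adjusted p = 8.69e-06 and 0.000105).

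V segments of the T cell receptor, which T cells rearrange in place of immunoglobulin segments, gave a comparison within the same arrays. Of 77 T cell receptor segments, 58 fell in Cre+ (75.3%) and 37 in Cre- cells (48.1%), where 10.6% and 9.1% of all genes fell. Of the 193 immunoglobulin genes, 110 (57%) and 148 (76.7%) fell. The larger share was that of the T cell receptor segments in Cre+ and of the immunoglobulin genes in Cre- cells. Median differences were -1.33 in Cre+ and -1.85 in Cre- cells for the immunoglobulin genes, and -0.81 and -0.58 for the T cell receptor segments. Between genotypes after activation 167 of 193 immunoglobulin genes were above 0, while 58 of 77 T cell receptor segments were below 0 (median -0.11). The difference between these sets was not tested.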

How the data were processed

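Total RNA of 12 samples was labelled with biotin and hybridised to 1 array each. Per the submitters' processing notes the deposited log2 values were made with RMA, affy 1.36.1 and R 2.15.1, and the values ran from 0.542 to 13.2. The chip definition file is not given in the sources used here. Of 25206 rows, 23185 paired with exactly 1 gene and were tested, and the remaining 2021 did not and were left out. A single linear model of all arrays, holding the 4 group means and no covariates, was fitted in limma 3.58.1 under R 4.3.3 (8 residual and 3.55 prior degrees of freedom) for 5 comparisons, and it was tested on simulated data. The constant genes, Jchain and lambda segments were named throughout, with the 6 heavy and 6 kappa segments of highest mean, up to 5 called genes per direction of largest difference (or the 3 largest test statistics where fewer than 2 passed), up to 4 genes per marker list, and markers of other cells; families, genes high on 1 array and genes called in few settings were singled out after their values were seen. Members, lists and rules were chosen with earlier results of these data known. Alternatives covered the replicate block, variance moderation, array weights, filters on level, rows, normalization and left-out arrays. Sequences are from RefSeq (GRCm38.p6).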

Additional observations from a re-analysis of the deposited data

How the results depend on the processing

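No median over the immunoglobulin genes changed sign in an activation comparison, between genotypes after activation, or in the difference of responses, under any alternative run. At baseline the median between genotypes ran from -0.24 without Cre+ baseline array 3 to 0.10 without Cre+ baseline array 1, and no gene passed in any setting. Leaving out 1 array gave 67 to 128 falls with activation in the Cre+ genotype, and 108 to 153 in Cre- cells, with medians of -1.56 to -1.05 and -2.12 to -1.67. Between genotypes after activation it gave 0 to 4 calls and medians of 0.19 to 0.61, and for the difference of responses 0 to 1 call (Igkv6-13) and medians of 0.25 to 0.70. A mean of at least 5 left 73 genes, of which 56 fell in Cre+ and 71 in Cre- cells (median -2.43). Array weights were 3.787 for activated Cre+ array 1, 3.075 for activated Cre- array 2 and at most 0.859 for the other activated arrays. With them 56 genes passed between genotypes after activation, all higher in Cre+ cells (16 heavy, 39 kappa and 1 constant), where 10.4% of all genes passed, and 3 for the difference of responses (Ighv1-82, Igkv4-72 and Igkv6-13). Without the activated arrays numbered 3 in both genotypes, Igkv6-13 was the 1 call in each of these comparisons. Without activated Cre+ array 2 the 1 call after activation was Ighv1-18. The cause was not tested. The replicate number as a block gave 1 call after activation (Ighv5-9, limma adjusted p = 0.0476) and 114 and 153 falls in Cre+ and Cre- cells. Deviations of same-numbered arrays correlated at -0.05, 0.57 and 0.73 between the activated groups and at -0.03, 0.14 and 0.15 between the baseline groups. Those of differently numbered arrays ran from -0.71 to 0.57 and from -0.17 to 0.05. The labels state no pairing, and the main model held none. Whether same-numbered arrays share a source was not tested. Of the comparisons of named genes across settings, 34 in Cre+ and 21 in Cre- cells lost a call, and 22 and 11 gained one. Ighg2b lost its call in Cre+ cells in 11 of 22 settings (limma adjusted p up to 0.184) and Ighg3 in Cre- cells in 9 of 22 (up to 0.161); with single arrays left out, Igkv1-117 (up to 0.0695) and Igkv10-96 (up to 0.0677) lost theirs in Cre- cells and Igkv4-68 (up to 0.0882), Ighv1-75 (up to 0.0705), Ighv5-9 (up to 0.0699), Ighv2-9-1 (up to 0.0651), Igkv1-135 (up to 0.0553) and Ighv2-3 (up to 0.0501) in Cre+ cells. Counting as bright only means of at least 6 kept 35 genes in place of 112. Dim readings and 3 arrays per group limit what could be detected.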

Other observations

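Immunoglobulin rows outside the naming rule gave further values. The heavy joining (J) segments, of which a rearranged heavy gene joins 1 to its V region, fell in both genotypes, Ighj1 by 2.14 in Cre+ and by 2.58 in Cre- cells on the log2 scale, Ighj3 by 2.12 and by 2.88, and Ighj4 by 1.83 and by 2.87. Ighj1 read 9.16, 8.78 and 9.59 on the activated Cre+ arrays, against 11.08, 11.10 and 11.78 on the Cre+ baseline arrays, and the groups did not overlap. The kappa joining segments Igkj3 and Igkj5 each fell by 1.52 in Cre+ cells, and by 2.51 and 2.38 in Cre- cells. Igkj1 differed by -1.46 in Cre+ cells (limma adjusted p = 0.0755) and fell by 2.55 in Cre- cells. Ighg2c, an IgG2 subclass gene, did not pass in Cre+ (difference -1.32, limma adjusted p = 0.194) or in Cre- cells (-1.96, limma adjusted p = 0.0568). Igll1, the surrogate light chain gene of pre-B cells, read 2.75 to 3.22 on all arrays and passed in no comparison.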
